A study of Mus musculus with 105 samples.

Results

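The 10 genes described here restrain the mammalian cell cycle. They comprise 7 genes of cyclin-dependent kinase (CDK) inhibitors (Cdkn1a, Cdkn1b, Cdkn1c, Cdkn2a, Cdkn2b, Cdkn2c and Cdkn2d), the pocket protein gene Rbl2, the cyclin G2 gene Ccng2 and the growth arrest gene Gas1. They were taken by symbol, with no threshold on their values, from a table of 54532 mouse gene identifiers. All 10 were among the 18094 genes with enough reads for testing. The study behind the table follows how quickly mouse cells make and lose microRNAs, and it also sequenced messenger RNA (mRNA) in 3 kinds of cell. Those 6 mRNA libraries, of 105 samples in the series, are the ones used here.

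CIMEF are mouse embryonic fibroblasts (MEFs) of the C57BL/6J strain that were kept for 5 days in contact inhibition, the state in which crowded cells stop dividing. DMEF are dividing MEFs of the same strain. ESC are embryonic stem cells of the v6.5 line, whose strain is labelled C57BL/6. Fibroblasts were grown in DMEM with serum. ESC were grown in DMEM/F12 with the B27 and N2 supplements, leukaemia inhibitory factor, the MEK inhibitor PD0325901 and the GSK3 inhibitor CHIR99021, so cell line and medium cannot be told apart in any comparison with ESC. Cells were used between passages 5 and 15. There were 2 mRNA libraries per line, and their labels give no labelling treatment or time. No label says that the libraries of a line came from separate cultures, so p-values measure the spread between these libraries, which may be technical.

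CDKs drive a cell through its cycle when bound to cyclins. Inhibitors of the CIP/KIP family (Cdkn1a, Cdkn1b, Cdkn1c) bind complexes of several cyclins with their kinases. Inhibitors of the INK4 family (Cdkn2a to Cdkn2d) bind the kinases CDK4 and CDK6 and keep them from D-type cyclins. Low CDK activity leaves the pocket proteins RB1, RBL1 and RBL2 unphosphorylated, and these hold E2F factors on cell cycle promoters. RBL2 and RBL1 do so within the DREAM complex. In fibroblasts this circuit is known for its part in contact inhibition, serum withdrawal and senescence, while embryonic stem cells are known for a short gap phase before DNA synthesis.

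On the GRCm38 assembly 3 members lie on chromosome 4. Cdkn2a (chr4:89274473-89294619) and Cdkn2b (chr4:89306289-89311032) are neighbours 11669 bases apart, and Cdkn2c lies at chr4:109660876-109666756. The others are Cdkn1a (chr17:29090979-29100722), Cdkn1b (chr6:134920401-134925525), Cdkn1c (chr7:143458339-143461059), Cdkn2d (chr9:21288459-21291421), Rbl2 (chr8:91070057-91123844), Ccng2 (chr5:93267573-93276231) and Gas1 (chr13:60174405-60177535). Cdkn2a has 2 start sites. The outer, start site 1, makes Arf, which restrains the p53 antagonist MDM2, and the inner, start site 2, makes the INK4 inhibitor itself. The deposited value is 1 count for the whole gene, so both products are added together. Reads in the stretches that genes share may be assigned to either gene or to neither, since the strand setting of the counting is not given in the sources used here. The long noncoding RNA gene Gm12610 (chr4:89295180-89518621) covers all 4744 bases of Cdkn2b and most of the interval between Cdkn2b and Cdkn2a, with 73 and 32 reads in CIMEF, 10 and 22 in DMEF, with 3 and 1 in ESC against 70 to 1406 for Cdkn2b. Aktip shares 12064 bases with Rbl2, with 1052 and 1658 reads in CIMEF, 1114 and 1454 in DMEF, with 1516 and 1567 in ESC. The read counts of Rbl2 itself were 3104 and 3937, 1686 and 1469, and 234 and 227 in the same order.

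Promoter sequences from RefSeq (GRCm38.p6) were found for 9 of the 10 members, in 12 windows of 300 bases that run from 250 before a start site to 50 after it. Cdkn1c had no entry. The stretches below hold the 150 bases before 5 start sites, written 5′ to 3′ along the gene. Cdkn1a and Cdkn1b are shown because their mRNAs moved in opposite directions between the fibroblasts. Both Cdkn2a starts are shown because their products share 1 count, and Gas1 because its mRNA was among those that differed most. Capitals mark a match to any motif searched.
Cdkn1a, start site 2 (chr17:29093619-29093768, + strand): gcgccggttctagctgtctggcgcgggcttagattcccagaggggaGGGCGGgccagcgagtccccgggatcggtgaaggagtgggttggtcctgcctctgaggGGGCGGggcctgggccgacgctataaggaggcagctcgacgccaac
Cdkn1b (chr6:134920251-134920400, + strand): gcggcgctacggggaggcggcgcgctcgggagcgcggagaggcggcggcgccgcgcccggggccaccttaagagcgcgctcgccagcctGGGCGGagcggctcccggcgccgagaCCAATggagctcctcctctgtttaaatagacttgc
Cdkn2a, start site 1 (chr4:89294620-89294769, - strand): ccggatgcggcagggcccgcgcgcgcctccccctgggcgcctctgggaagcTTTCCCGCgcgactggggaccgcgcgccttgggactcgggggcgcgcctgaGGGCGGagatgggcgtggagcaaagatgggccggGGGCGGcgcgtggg
Cdkn2a, start site 2 (chr4:89282193-89282342, - strand): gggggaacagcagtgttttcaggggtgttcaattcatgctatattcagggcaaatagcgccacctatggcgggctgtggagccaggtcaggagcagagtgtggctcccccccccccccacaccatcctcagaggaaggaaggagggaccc
Gas1 (chr13:60177536-60177685, - strand): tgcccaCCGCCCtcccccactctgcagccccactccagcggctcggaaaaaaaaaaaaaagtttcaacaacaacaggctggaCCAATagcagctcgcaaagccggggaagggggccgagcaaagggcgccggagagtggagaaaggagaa

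The GC box GGGCGG, which SP1 binds, occurred on either strand in 10 of the 12 windows and in all 9 genes, against 35.7% of all 32851 promoter windows of this length. CCAAT, the NF-Y box, was in 5 of 12 windows against 37.4%, and the CHR letters TTTGAA, read by the DREAM complex, were in 2 (Cdkn2b and Rbl2) against 17.9%. An E2F site (TTTGGCGC, TTTCCCGC or TTTCGCGC) was found in 1 window, the outer start of Cdkn2a, 99 bases before the start, against 1.84%. The E-box CACGTG was in 1 window (start site 2 of Cdkn2c) against 7.15%. The TATA letters TATAAA and the FOXO letters GTAAACA were in 0 of 12 windows, against 13.6% and 3.65%. Motifs were searched on both strands, and in the Cdkn2a window of start site 2 a CCAAT box and a GC box share bases. The windows of the members ranged from 44.0% to 77.0% G and C, with a median of 62.0% against 52.7% for all windows, and the comparison with all windows was not matched for this share. These matches describe letters only, and these data hold no measurement of binding.

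The libraries held 23030907 to 34093791 gene counts. Levels are given as counts per 1000000 reads (CPM) after scaling library sizes by edgeR's trimmed mean of M values (TMM). They are compared between lines and not between genes, because exon lengths were not used here. Fibroblast markers summed to 25796 and 27783 CPM in CIMEF, 19189 and 21038 in DMEF and 776 to 829 in ESC, and the 8 stem cell markers to 18.4 to 30.02 CPM in fibroblasts against 2885 to 2916 in ESC. All 9 fibroblast and all 8 stem cell markers had reads in every line, and from DMEF to CIMEF 6 of 9 fibroblast markers rose and 1 fell. Of the marker lists for other cells, the epithelial list reached 1054 to 1094 CPM in ESC, nearly all of it Cdh1, against 9.18 to 25.6 in CIMEF and 9.89 to 12.1 in DMEF. Endothelial markers gave 68.1 to 70.5 CPM in ESC, mostly Pecam1, against 4.796 to 6.92 in CIMEF and 16.2 to 20.1 in DMEF. The neural list gave 461 to 525 CPM in CIMEF, 307 to 381 in DMEF and 86.3 to 89.4 in ESC, of which Map2 made most in fibroblasts, and Sox10 had no read in any line. Macrophage markers stayed at or below 7.82 CPM and muscle markers at or below 3.59 in every library. Adipocyte markers gave 1.75 to 6.14 CPM in CIMEF and 15.8 to 17.8 in DMEF, mostly Fabp4, and at most 0.352 in ESC. Genes of early stem cell differentiation gave 33.0 to 40.3, 60.0 to 60.7 and 16.8 to 17.5 CPM in CIMEF, DMEF and ESC. The part of such cells in the results below was not tested. In these bulk libraries fewer cells with a transcript and less of it per cell cannot be told apart. The 2 libraries of a line differed most in CIMEF, where the log2 difference between them had an SD of 0.814 over genes, against 0.542 in DMEF and 0.364 in ESC.

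Between contact-inhibited and dividing fibroblasts the members did not move together. In CIMEF, 5 of 10 were higher (Cdkn1b, Cdkn1c, Cdkn2c, Rbl2 and Gas1) and 3 were lower (Cdkn1a, Cdkn2a and Cdkn2b) than in DMEF, while Cdkn2d and Ccng2 did not pass. The test was edgeR's quasi-likelihood test with Benjamini-Hochberg adjustment over all 18094 genes, and a gene was called at an adjusted p below 0.05. Of all genes tested, 19.5% were called higher and 21.1% lower in CIMEF. The median log2 difference of the members was 0.43, against 0 for all genes tested. In ESC 9 of 10 members were lower than in DMEF, where 30.5% of all genes were called lower and 30.3% higher, and 9 of 10 were lower than in CIMEF, where 37.7% were called lower and 38.2% higher. No member was called higher in ESC against either fibroblast line by edgeR, by an unadjusted p under 0.05 (0 and 0) or by DESeq2 (0 and 0). The member medians were -2.78 against DMEF and -3.21 against CIMEF, beside 0.06 and 0.06 for all genes. The 3 comparisons share libraries, so they are not independent of each other.

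**Figure D1:**
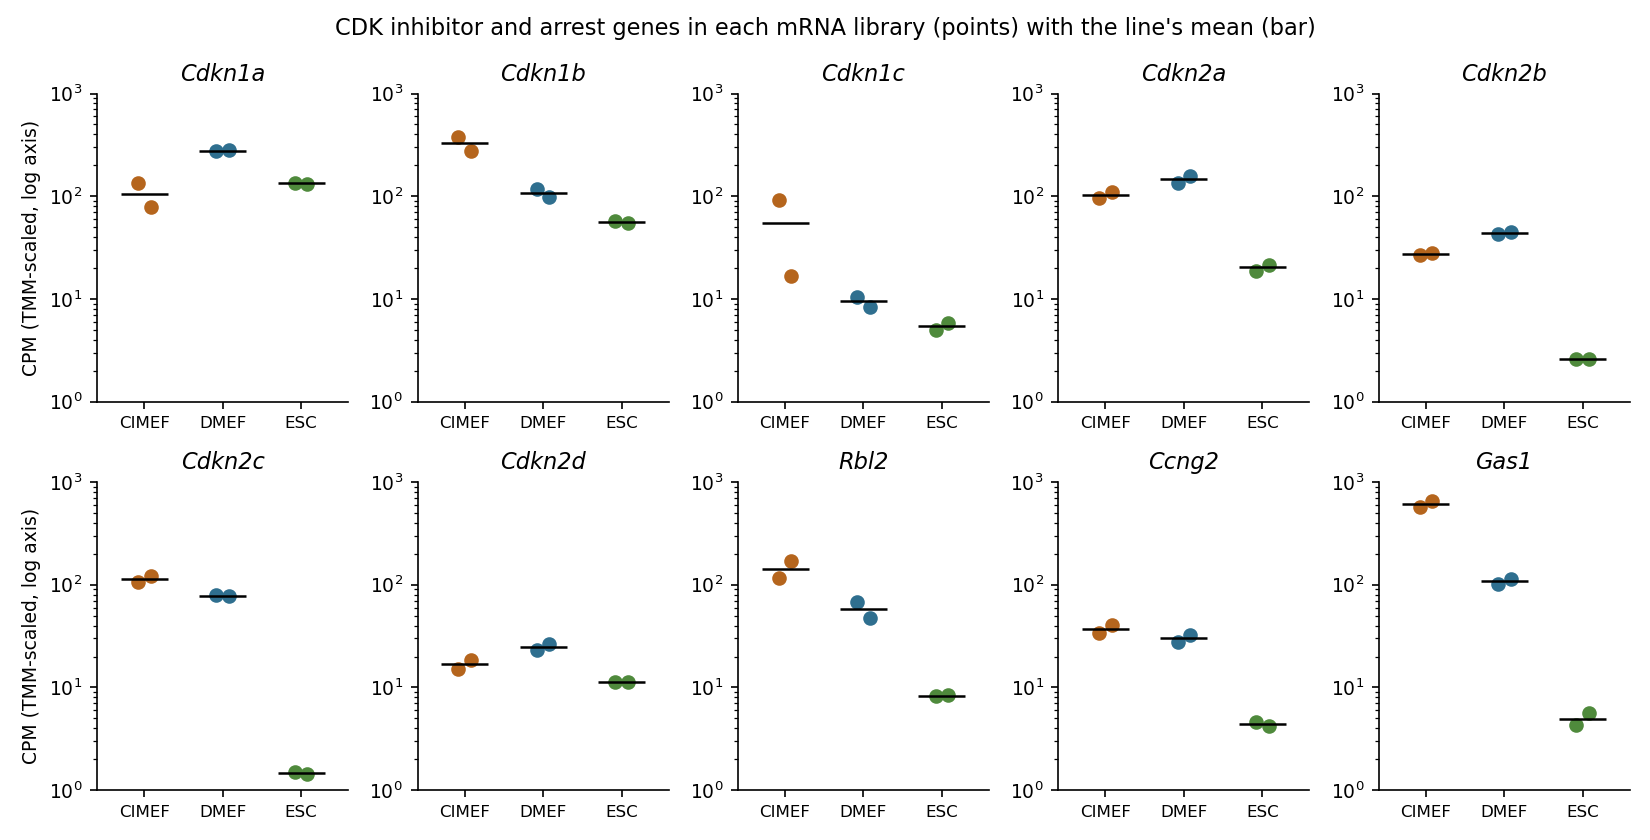
Level of each member in each library, in TMM-scaled CPM on a log axis, with 1 point per library and a bar at the mean of the 2 libraries of a line. Gas1 spans 4.26 CPM in ESC to 655 in CIMEF, and the 2 CIMEF points of Cdkn1c lie far apart, at 92.7 and 16.6.

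Among the CIP/KIP genes, Cdkn1a and Cdkn1b changed in opposite directions between the fibroblasts. Cdkn1a, a p53 target whose product can hold CDK2 inactive, stood at 133 and 78.6 CPM in CIMEF, 274 and 281 in DMEF, with 136 and 133 in ESC. DMEF libraries were the highest and overlapped neither other line, whereas the ESC values fell within or just above the range of CIMEF. Cdkn1a was lower in CIMEF than in DMEF by 1.39 on the log2 scale, or 2.62-fold (log2 difference -1.39 ± 0.24 SE, edgeR adjusted p = 0.00529). ESC were lower than DMEF by a log2 difference of -1.05 ± 0.24 (edgeR adjusted p = 0.0072). Between ESC and CIMEF the log2 difference was 0.34 with a 95% interval of -0.22 to 0.90, and it did not pass (edgeR adjusted p = 0.22). That last value rests on the CIMEF libraries, since it was 0.69 (edgeR adjusted p = 0.00259) without CIMEF replicate 1 and -0.004 (0.981) without CIMEF replicate 2.

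Cdkn1b encodes the inhibitor that gathers in quiescent cells, where its protein is controlled by degradation as well as synthesis. Its mRNA stood at 379 and 277 CPM in CIMEF, 119 and 98.5 in DMEF, with 57.6 and 54.985 in ESC. The 3 lines did not overlap, and the order was CIMEF, DMEF, ESC. CIMEF exceeded DMEF 3.02-fold (log2 difference 1.60 ± 0.19 SE, edgeR adjusted p = 0.00164). ESC lay below DMEF by a log2 difference of -0.95 ± 0.19 and below CIMEF by -2.54 ± 0.20 (edgeR adjusted p = 0.00393 and 3.58e-05). Both steps in the order therefore passed the test.

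A ratio of the reads of both genes within a library is free of library scaling, although it is not corrected for gene length. Cdkn1a reads per Cdkn1b read were 0.352 and 0.284 in CIMEF, 2.31 and 2.85 in DMEF, with 2.36 and 2.41 in ESC. Cdkn1b thus had more reads than Cdkn1a in both CIMEF libraries and fewer in all 4 libraries of DMEF and ESC. The ratios of DMEF and ESC overlapped.

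Cdkn1c, an imprinted gene whose product also restrains growth in the embryo, was the least even member. It stood at 92.7 and 16.6 CPM in CIMEF, 10.5 and 8.44 in DMEF, with 4.97 and 5.88 in ESC. Its CIMEF libraries differed 5.57-fold from each other, though both lay above every DMEF library, and every DMEF library lay above ESC. The fitted difference between CIMEF and DMEF was 2.53 ± 0.70 SE on the log2 scale, with a 95% interval of 0.88 to 4.17 (edgeR adjusted p = 0.0266). Without CIMEF replicate 1 it was 0.88 and still called, and the call was lost without DMEF replicate 1 (edgeR adjusted p = 0.127) or DMEF replicate 2 (0.18). ESC were lower than CIMEF by a log2 difference of -3.33 ± 0.73 (edgeR adjusted p = 0.00464), and by -1.69 without CIMEF replicate 1. Against DMEF the difference of -0.80 had an interval of -2.43 to 0.82 and did not pass (edgeR adjusted p = 0.339), but it passed in 4 of 13 alternatives, namely without CIMEF replicate 1 (0.008), without CIMEF replicate 2 (0.00469), without a filter on low counts (0.00205) and with the ESC and DMEF libraries alone (0.0086), over a range of 0.00205 to 0.643.

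The 4 INK4 genes had smaller differences between the fibroblasts. Cdkn2a stood at 96.0 and 111 CPM in CIMEF, 134 and 158 in DMEF, with 18.9 and 21.6 in ESC. Its neighbour Cdkn2b, which TGF-beta induces in many cells, stood at 27.0 and 27.8, 43.2 and 45.3, and 2.61 and 2.61 CPM in the same order. For both genes the lines did not overlap, DMEF were highest and ESC lowest. Cdkn2a was lower in CIMEF by a log2 difference of -0.49 ± 0.16 SE, or 1.41-fold (edgeR adjusted p = 0.0417). That call was lost in 9 of 13 alternatives, DESeq2 included (adjusted p = 0.0822), over a range of 0.0231 to 0.222. Of the fits without 1 library, those without CIMEF replicate 1, either DMEF library or either ESC library lost it. Cdkn2b was lower by -0.69 ± 0.15, or 1.62-fold (edgeR adjusted p = 0.0126), and lost its call without DMEF replicate 2 (0.0579), ESC replicate 1 (0.0639) or ESC replicate 2 (0.0617).

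Both neighbours were lower in ESC than in either fibroblast line. Cdkn2a was 7.20-fold lower than in DMEF (log2 difference -2.85 ± 0.17, edgeR adjusted p = 1.36e-05) and Cdkn2b 16.9-fold lower (-4.08 ± 0.18, 4.59e-06). Their 95% intervals, -3.25 to -2.45 and -4.50 to -3.66, did not overlap, although the difference between the genes was not tested itself. Cdkn2a reads per Cdkn2b read were 3.56 and 3.99 in CIMEF, 3.09 and 3.49 in DMEF, with 7.24 and 8.29 in ESC. ESC ratios lay above those of all 4 fibroblast libraries. Against CIMEF the log2 differences were -2.35 for Cdkn2a and -3.39 for Cdkn2b (edgeR adjusted p = 2.39e-05 and 7.03e-06).

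Cdkn2c, the INK4 gene known from muscle and lymphoid differentiation, was the member most reduced in ESC against DMEF. It stood at 106 and 122 CPM in CIMEF and 78.7 and 77.2 in DMEF, and at 1.51 and 1.45 in ESC, where 43 and 39 reads were counted. The lines did not overlap. ESC were 52.4-fold lower than DMEF (log2 difference -5.71 ± 0.18 SE, edgeR adjusted p = 2.95e-06) and 76.6-fold lower than CIMEF (-6.26 ± 0.18, 3.08e-06). Only 2.63% of all genes tested had a lower log2 difference than Cdkn2c between ESC and DMEF. CIMEF exceeded DMEF 1.46-fold (0.55 ± 0.14, edgeR adjusted p = 0.0197), a call that was lost in 5 of 13 alternatives over a range of 0.00514 to 0.0763. These were the fits without DMEF replicate 1 (0.0539), DMEF replicate 2 (0.0732), ESC replicate 1 (0.0703) or ESC replicate 2 (0.0763), and the fit of the 4 fibroblast libraries alone (0.0601).

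Cdkn2d, the INK4 gene that many cycling cells transcribe, varied least among the 10 members. It stood at 15.1 and 18.4 CPM in CIMEF, 23.02 and 26.3 in DMEF, with 11.3 and 11.4 in ESC. The lines did not overlap, with DMEF highest and ESC lowest. CIMEF lay below DMEF by a log2 difference of -0.56, with a 95% interval of -1.01 to -0.11, and this did not pass (edgeR adjusted p = 0.053). It passed without CIMEF replicate 2 (0.0232), in 1 of 13 alternatives over a range of 0.0232 to 0.219. ESC were lower than DMEF by -1.12 ± 0.19 (edgeR adjusted p = 0.00202). Against CIMEF the difference was -0.57 ± 0.19 (edgeR adjusted p = 0.0304), and its call was lost with upper-quartile scaling (0.144) and without CIMEF replicate 2 (0.0757), ESC replicate 1 (0.18) or ESC replicate 2 (0.162).

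Reads of Cdkn2c per read of Cdkn2d were 6.998 and 6.65 in CIMEF, 3.42 and 2.93 in DMEF, with 0.134 and 0.128 in ESC. The 3 lines did not overlap in this ratio. In ESC Cdkn2d thus had more reads than Cdkn2c, and in both fibroblast lines the reverse held, without correction for gene length.

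**Figure D2:**
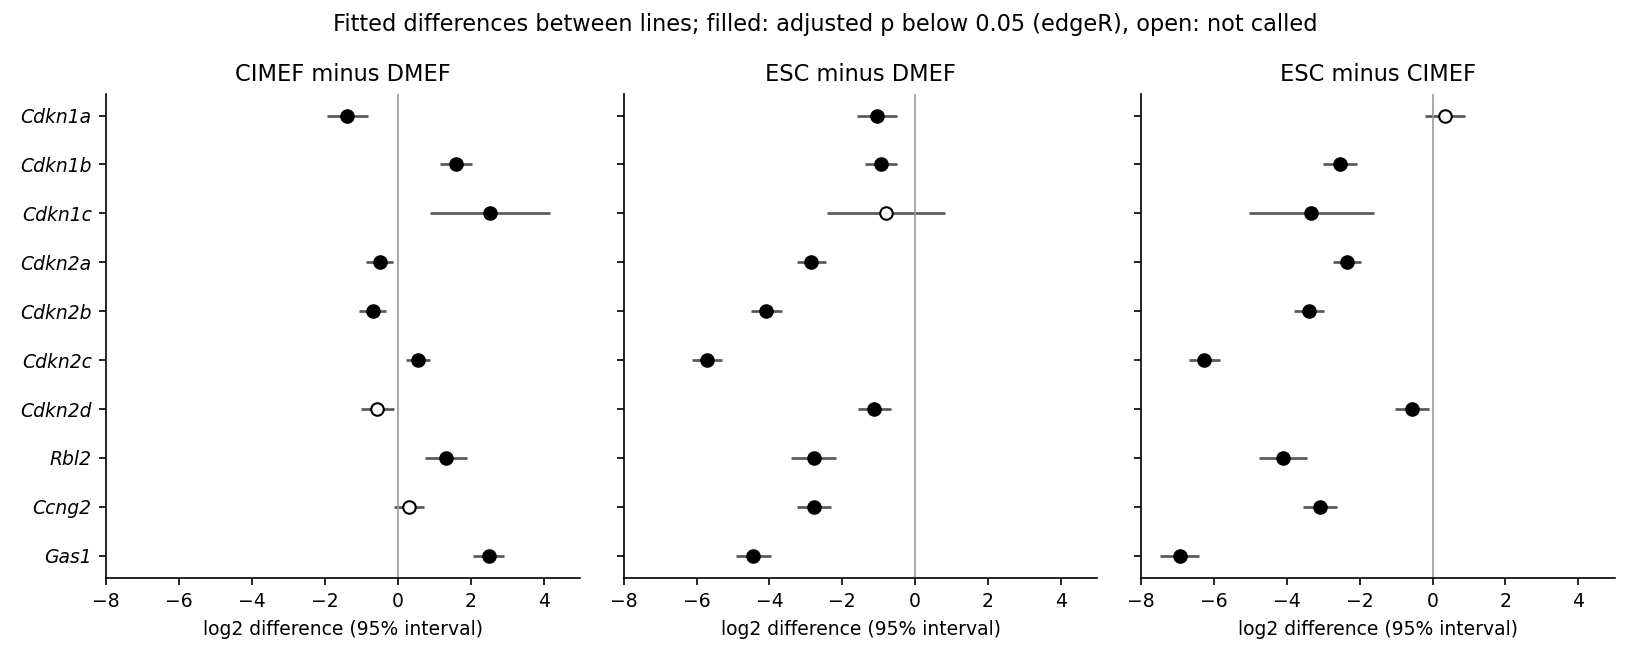
Fitted log2 difference of each member in the 3 comparisons with its 95% interval, filled where the edgeR adjusted p was below 0.05. In both comparisons with ESC 9 of 10 members lie left of 0 and are filled, while between the fibroblasts they fall on both sides, from -1.39 for Cdkn1a to 2.53 for Cdkn1c.

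Rbl2 encodes a pocket protein that joins E2F4 or E2F5 in the DREAM complex of resting cells. It stood at 115 and 171 CPM in CIMEF, 67.5 and 47.3 in DMEF, with 8.24 and 8.45 in ESC. The lines did not overlap and followed the order CIMEF, DMEF, ESC. CIMEF exceeded DMEF 2.50-fold (log2 difference 1.32 ± 0.24 SE, edgeR adjusted p = 0.00658), a call lost without DMEF replicate 2 (0.0593). ESC were 6.87-fold lower than DMEF (-2.78 ± 0.26, edgeR adjusted p = 0.000113) and 17.2-fold lower than CIMEF (-4.10 ± 0.28, 1.95e-05). Aktip, with which Rbl2 shares bases, stood at 39.1 and 72.2, 44.6 and 46.8, and 53.4 and 58.3 CPM in the same order of lines, so it was not lowest in ESC.

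Ccng2 encodes an unusual cyclin that is transcribed in resting cells and can hold a cell before division. It stood at 33.9 and 40.5 CPM in CIMEF, 28.0 and 32.2 in DMEF, with 4.58 and 4.17 in ESC. Fibroblast levels lay close together, with both CIMEF libraries just above both DMEF libraries, and ESC lay far below. The difference between the fibroblasts was 0.31 on the log2 scale with a 95% interval of -0.12 to 0.73, and it did not pass (edgeR adjusted p = 0.207). ESC were 6.87-fold lower than DMEF (-2.78 ± 0.20, edgeR adjusted p = 2.98e-05) and 8.50-fold lower than CIMEF (-3.09 ± 0.20, 1.61e-05).

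Gas1, named for its induction in growth-arrested fibroblasts, encodes a membrane protein that is also a co-receptor for Hedgehog ligands. It stood at 566 and 655 CPM in CIMEF, 102 and 115 in DMEF, with 4.26 and 5.70 in ESC. These levels did not overlap and were spread over the widest range of any member. CIMEF exceeded DMEF 5.62-fold (log2 difference 2.49 ± 0.18 SE, edgeR adjusted p = 0.000504), and 94.7% of all genes tested had a lower difference. ESC were 21.8-fold lower than DMEF (-4.45 ± 0.20, edgeR adjusted p = 5.16e-06) and 123-fold lower than CIMEF (-6.94 ± 0.23, 3.08e-06). All 3 calls held in each of the 13 alternatives.

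**Figure D3:**
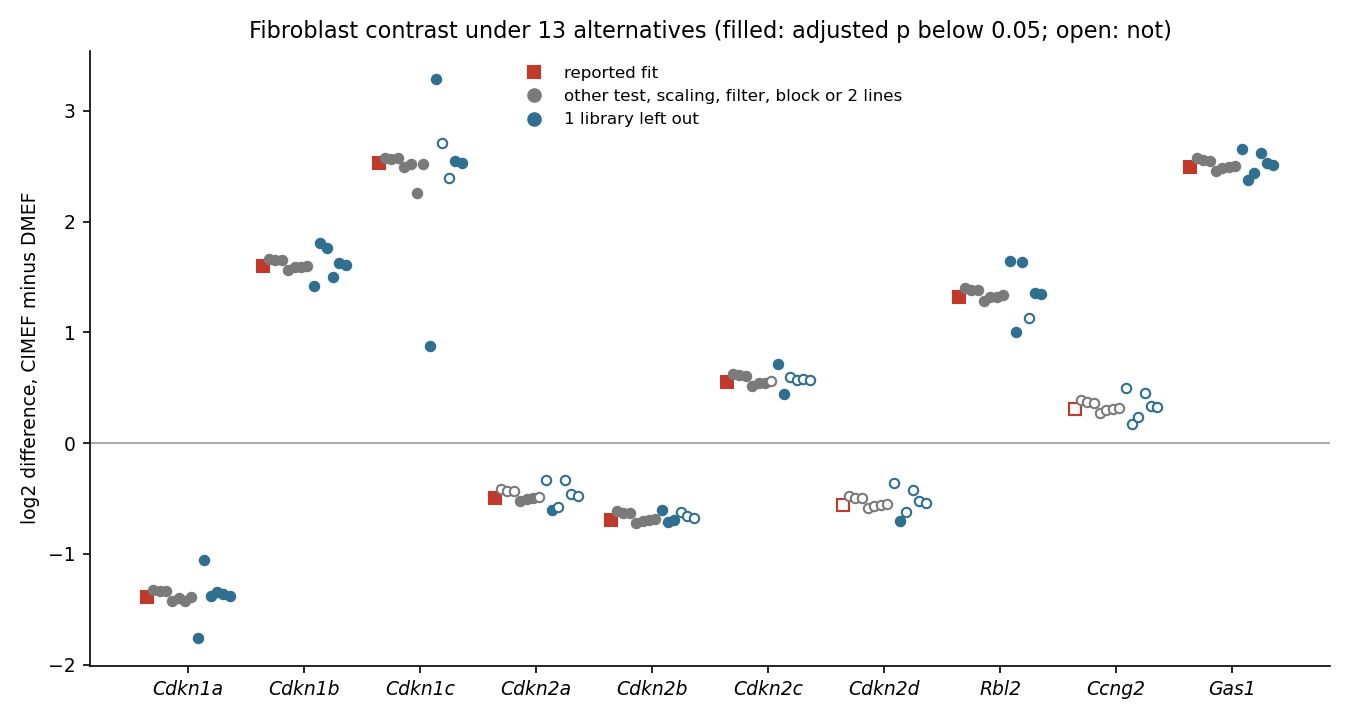
Log2 difference between CIMEF and DMEF for each member in the reported fit (square) and 13 alternatives (circles, blue where 1 library was left out), filled where the adjusted p was below 0.05. Cdkn1a, Cdkn1b and Gas1 are filled throughout, Cdkn1c ranges from 0.88 to 3.29, and Cdkn2a is mostly open.

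Patterns over the 6 libraries differed among the members. As a measure of likeness, the root mean square distance between log2 CPM values, each centred on the gene's own mean, was taken over the 6 libraries. The closest members were Cdkn2a and Ccng2, at a distance of 0.37, and the farthest were Cdkn1a and Gas1, at 3.01. Among all genes tested, the gene most like each member was Xk for Cdkn1a (distance 0.0991), Plekhn1 for Cdkn1b (0.091), Unc93b1 for Cdkn1c (0.235), Disp1 for Cdkn2a (0.0928), Flrt2 for Cdkn2b (0.0812) and Lhfp for Cdkn2c (0.12). For Cdkn2d it was Brap (0.0331), for Rbl2 Scn2a (0.0728), for Ccng2 Tcf7l2 (0.099) and for Gas1 Npnt (0.185). With 2 libraries in each of 3 lines, such likeness is mostly that of 3 means, and no member had another member as its closest gene. Npnt, for example, stood at 944 and 1377 CPM in CIMEF, 204 and 169 in DMEF, with 8.91 and 10.4 in ESC.

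The genes that the inhibitors act on were also measured. Of 11 cyclins and CDKs, 7 were lower in CIMEF than in DMEF and 0 higher by edgeR (0 at an unadjusted p under 0.05 and 0 by DESeq2), with a list median of -0.65 beside 0 for all genes. Ccnd1, a D-type cyclin that INK4 proteins compete with, fell from 390 to 102 CPM (log2 difference -1.94 ± 0.19 SE, edgeR adjusted p = 0.00102). The other D-type cyclins differed less, with Ccnd3 called lower (-0.52) and Ccnd2 not called (-0.51). Ccne1, a partner of CDK2, fell from 71.4 to 26.9 CPM (-1.41 ± 0.21, edgeR adjusted p = 0.00331). The other cyclin E gene, Ccne2, was not called between the fibroblasts (-0.009). Against DMEF, ESC had 4 of these genes higher and 4 lower, among them Ccne1 (2.03 ± 0.21), Cdk6 (0.94 ± 0.20), Ccnd2 (-4.37 ± 0.41) and Ccne2 (-1.27 ± 0.14). Against CIMEF, 8 were higher in ESC, led by Ccne1 (3.44 ± 0.23) and the mitotic cyclin gene Ccnb1 (1.88 ± 0.15), and 2 were lower, Ccnd2 (-3.86 ± 0.40) and Ccne2 (-1.26 ± 0.14). Lists here were described by counts and medians, without a test of the list. From DMEF to CIMEF 19.5% of all genes tested were called higher and 21.1% lower. In ESC these shares were 30.3% and 30.5% against DMEF, and 38.2% and 37.7% against CIMEF.

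Of 17 other pocket protein, E2F and DREAM genes, CIMEF had 2 higher and 9 lower than DMEF (median -0.52), beside 19.5% and 21.1% of all genes. Rb1, the retinoblastoma pocket protein gene (0.86 ± 0.28, edgeR adjusted p = 0.0447), and the E2F partner gene Tfdp2 (0.92 ± 0.16, 0.00564) rose, as Rbl2 did. The call of Rb1 was lost without CIMEF replicate 1 (0.0582), DMEF replicate 2 (0.0916), ESC replicate 1 (0.0634) or ESC replicate 2 (0.0669) and with the fibroblast libraries alone (0.0622), over a range of 0.00126 to 0.0916. Without DMEF replicate 2, 4 genes of the list were called lower. E2f7, a repressive E2F (-1.36 ± 0.13), and Mybl2, which activates mitotic genes (-1.35 ± 0.13), fell. ESC had 6 higher and 5 lower than DMEF, led by Mybl2 (3.23 ± 0.14) and E2f2 (2.87 ± 0.37) and by Rb1 (-2.35 ± 0.30) and E2f7 (-2.31 ± 0.14), beside 30.3% and 30.5% of all genes. They had 8 higher and 6 lower than CIMEF, beside 38.2% and 37.7% of all genes. In that last comparison Mybl2 (4.59 ± 0.15) and E2f4 (2.58 ± 0.15) led the higher genes, and Rb1 (-3.21 ± 0.31) and Rbl1 (-1.11 ± 0.14) the lower. All 3 pocket protein genes, Rb1, Rbl1 and Rbl2, were therefore lower in ESC than in CIMEF.

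Ubiquitin ligase genes whose products help degrade CDK inhibitors were measured as well. Of 8 such genes, 2 were lower in CIMEF than in DMEF, namely Cks1b (-1.21 ± 0.16) and Ddb1 (-0.94 ± 0.16), and 0 were higher by edgeR (1 at an unadjusted p under 0.05 and 1 by DESeq2). Without CIMEF replicate 1 there were 2 higher, and without CIMEF replicate 2 there was 1. ESC had 3 higher and 2 lower than DMEF, including Cul1 (0.98 ± 0.13), Dtl (0.79 ± 0.24), Cul4a (-1.33 ± 0.22) and Ddb1 (-0.49 ± 0.16). Dtl and Ddb1 both lost their call without DMEF replicate 1, ESC replicate 1 or ESC replicate 2, Dtl also without DMEF replicate 2, and Ddb1 with 2 other scalings. ESC had 5 higher and 1 lower than CIMEF, including Cks1b (1.31 ± 0.16), Cul4b (0.82 ± 0.17) and Cul4a (-1.54 ± 0.22). The median of this list was -0.24 from DMEF to CIMEF, and in ESC 0.26 against DMEF and 0.56 against CIMEF. Among all genes tested, 21.1% were lower and 19.5% higher in CIMEF than in DMEF. For ESC, 30.3% were higher and 30.5% lower against DMEF, with 38.2% and 37.7% against CIMEF.

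Of 18 regulators of CDK inhibitor transcription, 5 rose and 5 fell from DMEF to CIMEF (median -0.17), beside 19.5% and 21.1% of all genes. Cbx7, a Polycomb gene known to repress the Cdkn2a locus, was higher (1.57 ± 0.25 SE), as was Foxo4, of the factors that activate Cdkn1b (0.82 ± 0.15). Among the other FOXO genes listed, Foxo3 was higher (0.73) and Foxo1 lower (-0.55). Of the other Polycomb genes listed, Bmi1 (0.65) and Rnf2 (0.77) were higher and Ezh2 was not called (-0.44). Myc, which represses several inhibitor genes, fell from 87.9 to 13.5 CPM (-2.70 ± 0.26, edgeR adjusted p = 0.000935), and Ets1, an activator of Cdkn2a, from 146 to 35.4 (-2.05 ± 0.28, 0.00249). ESC had 5 higher and 8 lower than DMEF, beside 30.3% and 30.5% of all genes. Cbx7 stood at 142 CPM in ESC against 3.82 in DMEF and 11.4 in CIMEF (log2 differences 5.22 ± 0.27 and 3.65 ± 0.25), and Ets1 at 1.05 (-7.12 ± 0.37 and -5.07 ± 0.35). The other Polycomb genes listed went both ways against DMEF, with Bmi1 lower in ESC (-2.515) and Ezh2 (1.41) and Rnf2 (0.47) higher. Foxo4 (1.63 ± 0.15) was also higher and Id1 (-2.93 ± 0.20) lower in ESC than in DMEF. In that comparison Foxo1 was lower (-2.63) and Foxo3 was not called (-0.34). Against CIMEF there were 6 higher, with Trp53 (2.43 ± 0.18), and 9 lower, with the Polycomb gene Bmi1 (-3.16 ± 0.14), beside 38.2% and 37.7% of all genes.

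Among 17 other growth arrest genes, 6 rose and 3 fell from DMEF to CIMEF (median 0.18), beside 19.5% and 21.1% of all genes. Gas2, found in the same kind of screen as Gas1, stood at 337 against 33.9 CPM (3.32 ± 0.17, edgeR adjusted p = 0.000274), and the p53 target Trp53inp1 at 357 against 84.1 (2.09 ± 0.38, 0.00616). Without DMEF replicate 2 Trp53inp1 lost its call (0.0688, the highest of 13 alternatives that began at 7.06e-26) and 3 genes of the list were called higher, and without CIMEF replicate 2 there were 6 called lower. The stress genes Gadd45g (-3.22 ± 0.22) and Gadd45b (-2.46 ± 0.38) were lower. ESC had 1 higher, Klf2 (2.98 ± 0.43), and 9 lower than DMEF, led by Gadd45g (-5.77 ± 0.26) and Gas7 (-4.17 ± 0.70). They had 2 higher, Klf2 (2.85 ± 0.42) and Hes1 (2.03 ± 0.19), and 10 lower than CIMEF, led by Gas6 (-5.90 ± 0.44) and Gas2 (-5.78 ± 0.19). Shares of all genes higher and lower in ESC were 30.3% and 30.5% against DMEF, and 38.2% and 37.7% against CIMEF.

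Of 10 genes of S and M phase, 6 fell and 1 rose from DMEF to CIMEF (median -0.89), beside 21.1% and 19.5% of all genes. The mitotic kinase genes Plk1 (-2.02 ± 0.19) and Aurka (-1.999 ± 0.205) fell, while Mki67, whose protein marks cycling cells, was higher at 1070 against 649 CPM (0.72 ± 0.15, edgeR adjusted p = 0.011). ESC had 4 higher and 1 lower than DMEF (2 to 8 higher over the alternatives, with 2 without either ESC library and 8 with upper-quartile scaling) and 7 higher and 1 lower than CIMEF. The replication genes Mcm2 (1.67 ± 0.15) and Mcm5 (1.39 ± 0.22) led against DMEF, and Mcm2 (2.44 ± 0.15) and Rrm2 (2.43 ± 0.13) against CIMEF. Mki67 was the gene that was lower in both comparisons (-1.53 ± 0.16 and -2.25 ± 0.16). Shares of all genes higher and lower in ESC were 30.3% and 30.5% against DMEF, and 38.2% and 37.7% against CIMEF.

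**Figure D4:**
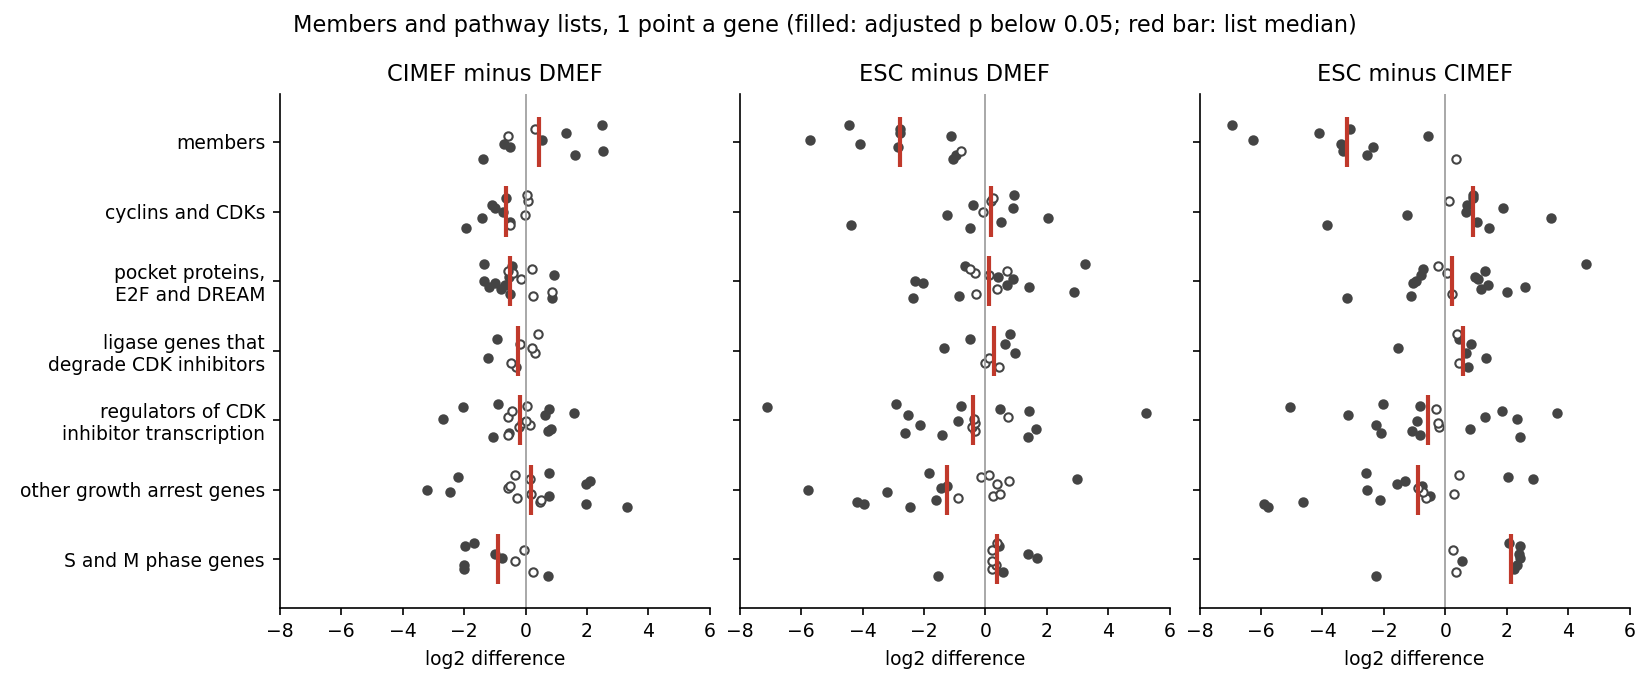
Log2 difference of every gene of the member list and the 6 pathway lists in the 3 comparisons, 1 point per gene, filled where the edgeR adjusted p was below 0.05, with a red bar at the list median. Between the fibroblasts the medians of cyclins and CDKs and of S and M phase genes lie at -0.65 and -0.89, and the member median at 0.43. In both comparisons with ESC the member list has the lowest median, at -2.78 and -3.21.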

How the data were processed

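Messenger RNA was measured in 6 libraries, 2 each of CIMEF, DMEF and ESC. The remaining 99 samples, which hold small RNA, were not analysed here. Libraries were made from poly(A) RNA with a directional kit and read as 40-base single ends, per the labels' protocols. The authors deposited whole-number gene counts without normalization in 1 table. Its making names cutadapt, STAR 2.4, HTSeq 0.9.1 and mm10/GRCm38, per the submitters' processing notes. The annotation release, the strand setting and the treatment of reads that map to several places are not given in the sources used here. The table lists 54532 identifiers. Symbols were matched for 54409 of them, and 32500 were counted in some library.

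Counts were fitted with edgeR 4.0.16 in R 4.3.3 (TMM scaling, filterByExpr, quasi-likelihood test, 3 residual degrees of freedom shared by all 6 libraries). P-values were two-sided and adjusted by the Benjamini-Hochberg method over 18094 genes per contrast, with calls at 0.05. Standard errors are the log2 difference divided by the square root of F, and intervals are at 95%. DESeq2 1.42.0 was run as an alternative. Figures and sequence searches used Python 3.11.15. Named genes were the 10 members, up to 2 called genes in each direction per pathway list and contrast with the largest log2 difference, and the gene most like each member, computed with a prior count of 2. Ccnd2 and Ccnd3 were also given beside Ccnd1, and Ccne2 beside Ccne1, for the fibroblasts. Foxo1 and Foxo3 were given beside Foxo4, and Bmi1, Ezh2 and Rnf2 beside Cbx7, in both comparisons with DMEF. These added values are not among the log2 differences carried through the alternatives. Members, lists and markers are lists of symbols with no threshold on values, but they were drawn up with earlier results of these data known, so their counts are not independent of those results. Each library held 23030907 to 34093791 counts, and there were 2 libraries per line.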

Additional observations from a re-analysis of the deposited data

How the results depend on the processing

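Over 30 log2 differences (10 members in 3 comparisons) and 13 alternatives, 359 of 390 values kept their direction and side of the threshold, 24 lost a call, 6 gained a call and 1 reversed. The reversed value was Cdkn1a between ESC and CIMEF, at -0.004 without CIMEF replicate 2 and 0.69 without CIMEF replicate 1. From DMEF to CIMEF, fits that left out 1 library called 2 to 5 members higher and 1 to 4 lower, with 1605 to 4370 genes higher and 2000 to 4009 lower among all tested. The lowest of these came without DMEF replicate 2, which left 2 members higher and 1 lower, and 1605 and 2000 genes. Without DMEF replicate 1 there were 3 members higher, and without ESC replicate 1 or ESC replicate 2 there was 1 lower, with 2345 and 2391 genes lower. Members higher in ESC than in CIMEF numbered 0 to 1, the 1 being Cdkn1a without CIMEF replicate 1. The cause was not tested. The 63 log2 differences named from the pathway lists, to which the same alternatives were applied after seeing the data, kept direction and call in 804 of 819 values and lost a call in 15. A fit that leaves out a library has 1 library in a line and assumes that it varies like the others.

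Upper-quartile scaling moved the median log2 difference of all genes from 0.06 to 0.34 (ESC minus DMEF) and from 0.06 to 0.28 (ESC minus CIMEF). No member changed direction with scaling. A replicate block called 3257 genes higher and 3442 lower from DMEF to CIMEF and changed no member's call. Same-numbered libraries did not deviate together (correlations of 0.03, -0.004 and -0.008 over genes), so the numbers were not taken as pairs. Small counts of pathway list genes also moved. From DMEF to CIMEF, 3 of the regulators were lower without either DMEF library and 8 without a filter, and 5 pocket protein, E2F and DREAM genes were lower without either ESC library. From DMEF to ESC, 2 cyclins and CDKs were lower without DMEF replicate 2 or either ESC library and with RLE or upper-quartile scaling, the stricter filter or the replicate block, 1 ligase gene was higher and 1 lower without either ESC library, and 3 other growth arrest genes were higher without either CIMEF library (4 with upper-quartile scaling). Levels per base of the longest transcript were not run, because exon lengths were not used here.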
